A study of Bos taurus with 33 samples.

Results

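Transcripts of 10 enzymes of glycolysis (HK1, HK2, GPI, PFKP, ALDOA, ALDOC, TPI1, PGK1, ENO1 and PKM) were followed through 33 libraries of bovine oocytes and cumulus cells (CC), the somatic cells that enclose the oocyte. The genes were chosen by symbol and joined between the oocyte and CC tables by Ensembl identifier, which found 10 of 10, among 14980 genes listed in both tables. By symbol alone 8 of the 10 were found in both, because ENO1 carries no symbol in the CC table and PKM is listed as PKM2 in the oocyte table. Each library came from a pool of 4 oocytes, or from the CC of 4 complexes, of suckled postpartum Hereford-Angus cows whose cycles had been synchronized with GnRH and prostaglandin F2 alpha. In the study each CC pool was taken from the same 4 complexes as an oocyte pool, but the labels do not tie the pools by number. The main tests of oocytes against CC therefore took pools that share animals as independent. Cows without estrus received a second GnRH injection and were classed by the diameter of the follicle as small (11.7 mm or less, 6 oocyte and 6 CC pools) or large (12.7 mm or more, 6 and 6 pools). Cows that showed estrus had their own gonadotropin surge and no second injection, and form the spontaneous class (4 oocyte and 5 CC pools). All follicles were aspirated about 23 h (20 h in another label) after injection or estrus, so all pools had met a gonadotropin surge, and no pool from before the surge enters a comparison. Since small and large follicles were induced and spontaneous ones were not, class differences against spontaneous pools cannot be told apart from the way in which the surge was triggered.

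Glycolysis splits glucose into pyruvate. Hexokinases (HK) phosphorylate glucose, glucose-6-phosphate isomerase (GPI) makes fructose-6-phosphate, phosphofructokinases (PFK) commit it to breakdown, and aldolases (ALDO) cleave the product. Triose-phosphate isomerase (TPI1), phosphoglycerate kinase (PGK1), enolase (ENO1) and pyruvate kinase (PKM) carry the 3-carbon pieces on to pyruvate. Several steps have paralogues coded by separate genes, such as HK1, the hexokinase of most tissues, and HK2, an inducible one. In the ovarian follicle CC take up and break down glucose, and the oocyte is known to use glucose poorly itself and to depend on pyruvate and lactate passed on by its CC.

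Levels are given as CPM, the number of reads of a gene in each 1000000 that were counted on genes. Depth ran from 7664375 to 17934916 counted reads in oocyte pools and from 1911600 to 5772431 in CC pools. A gene without a read could thus still have had 0.167 to 0.391 CPM in an oocyte pool and 0.52 to 1.57 CPM in a CC pool, the worth of 3 reads (counting error only). The 5 oocyte markers listed in both tables summed to 4668 to 7722 CPM in the oocyte pools, against at most 6.76 CPM in any CC pool. The 10 cumulus markers summed to 11738 to 32533 CPM in CC pools and 456 to 3896 CPM in oocyte pools, most in small replicate 3 (3896 CPM) and large replicate 6 (3577 CPM). Transcripts encoded by mitochondrial DNA took 12.6 to 44.0% of a CC library and 0.846 to 5.0% of an oocyte library. CPM are not divided by transcript length, so that values are compared between pools of 1 gene and not between genes. In pools, fewer cells of a type and less RNA per cell cannot be told apart.

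The 10 enzymes took a larger share of the counted reads in CC pools than in oocyte pools. The 10 genes together took 2787 to 6401 CPM of a CC pool (median 5161, n = 17) and 357 to 1054 CPM of an oocyte pool (median 700.0, n = 16), with no overlap. The difference was far from even among the enzymes. HK2, PFKP, ALDOA, TPI1, PGK1, ENO1 and PKM were 7.96 to 19.3 times as high in mean CPM in CC, whereas GPI, HK1 and ALDOC were 1.28, 1.39 and 1.88 times as high, as the plot of all pools shows. For every gene the difference was tested with limma on log2(CPM + 1) over 11431 genes that reached 5 CPM in 4 or more oocyte pools or in 5 or more CC pools, both tables in 1 fit. The tables were scaled separately, each library by its own total, and genes listed in only 1 table took 2.54 to 3.21% of oocyte and 0.0304 to 0.309% of CC libraries.

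**Figure D1:**
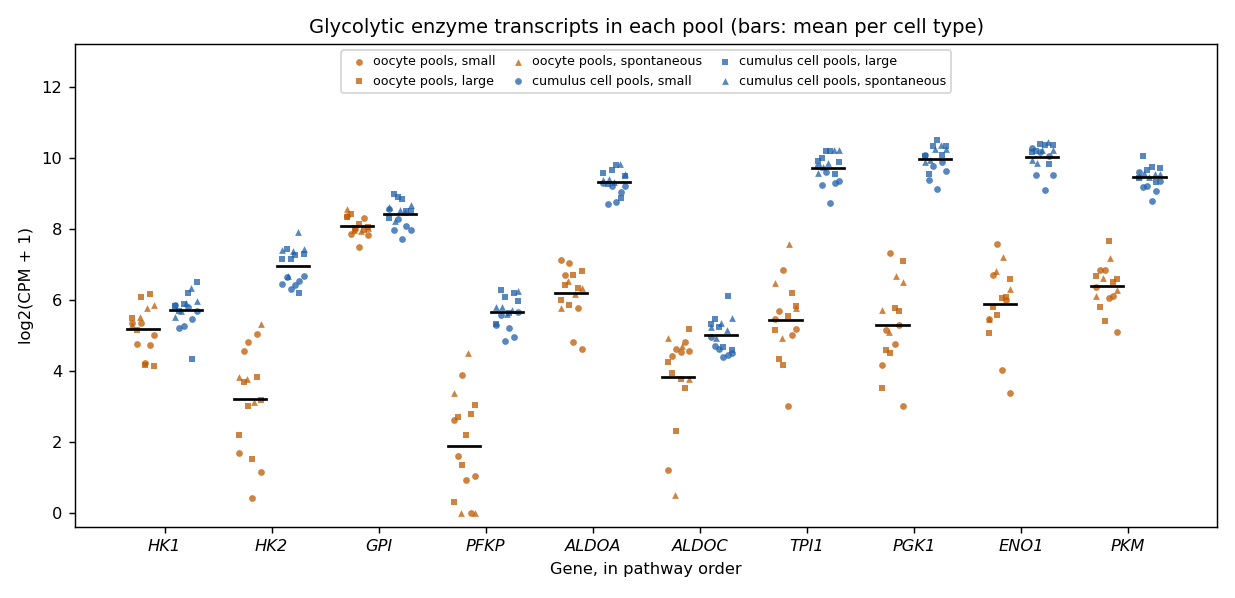
Level of the 10 transcripts in each pool, as log2(CPM + 1), in pathway order. Each point is a pool (16 oocyte pools in orange, 17 CC pools in blue, follicle class by shape) and black bars are means per cell type. The clouds of HK1, GPI and ALDOC overlap between cell types and the other 7 do not.

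All 10 genes were called higher in CC (limma, Benjamini-Hochberg adjusted p under 0.05), against 41.9% of all genes tested called higher in CC and 45.5% called higher in oocytes. The median difference of the 10 was 3.45 on the log2 scale and that of all genes tested -0.15. Scaling by the median of ratios moved these to 3.77 and 0.20. For 7 of the 10 the lowest CC pool lay above the highest oocyte pool, which held for 13.4% of all genes tested.

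At the entry of the pathway HK1 (ENSBTAG00000012380) and HK2 (ENSBTAG00000013108) differed in kind. HK1 ranged from 16.6 to 70.5 CPM in oocyte pools (median 38.6) and from 19.0 to 88.7 CPM in CC pools (median 54.7). The HK1 pools overlapped over most of their range, and the difference was 0.52 ± 0.19 (log2, SE; limma adjusted p = 0.0124). HK2 ranged from 0.327 to 38.6 CPM in oocyte pools (median 9.89) and from 72.1 to 238 CPM in CC pools (median 140.0). No oocyte pool reached the lowest CC pool in HK2, and the difference was 3.76 ± 0.34 (limma adjusted p = 3.92e-13). The HK1 call did not hold within large pools (adjusted p = 0.231, limma) or spontaneous pools (adjusted p = 0.285), nor with the 12 small and large oocyte and CC pools paired by number (adjusted p = 0.0519 with this replicate block).

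GPI (ENSBTAG00000006396) was the enzyme whose level was most alike in both cell types. It ranged from 176 to 375 CPM in oocyte pools (median 259) and from 210 to 498 CPM in CC pools (median 360), with a difference of 0.34 ± 0.11 (limma adjusted p = 0.00424). Large overlap remained, and within small pools alone the difference was 0.13 (adjusted p = 0.552, limma) and within spontaneous pools 0.38 (adjusted p = 0.0561). By class mean, oocytes of large follicles (285 ± 37.9 CPM, SD, n = 6) stood above CC of small follicles (276 ± 57.6 CPM, n = 6), a gap smaller than either SD.

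PFKP (ENSBTAG00000002683), the platelet-type phosphofructokinase, was low in oocytes. It ranged from 0 to 21.4 CPM in oocyte pools (median 2.78), with no read in 3 pools, and from 27.7 to 75.8 CPM in CC pools (median 49.0). The difference was 3.76 ± 0.35 (limma adjusted p = 5.1e-13), with no overlap. The oocyte pools with the highest PFKP were spontaneous replicate 3 (21.4 CPM) and small replicate 3 (13.7 CPM), whose summed cumulus markers were 2562 and 3896 CPM.

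Of the aldolases, ALDOA was apart between the cell types and ALDOC overlapped. ALDOA (ENSBTAG00000012927) ranged from 23.2 to 139 CPM in oocyte pools (median 79.0) and from 413 to 903 CPM in CC pools (median 632), a difference of 3.13 ± 0.18 (limma adjusted p = 2.33e-19). ALDOC (ENSBTAG00000013099), the brain-type aldolase, ranged from 0.405 to 34.8 CPM in oocyte pools (median 19.2) and from 19.7 to 67.9 CPM in CC pools (median 30.1). The ALDOC pools overlapped, with a difference of 1.19 ± 0.32 (limma adjusted p = 0.000901), and within small pools alone it was 0.57 (adjusted p = 0.308).

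The 4 enzymes that handle the 3-carbon pieces had wide gaps between the cell types. TPI1 (ENSBTAG00000019782) ranged from 7.03 to 188 CPM in oocyte pools (median 43.9) and from 421 to 1187 CPM in CC pools (median 863), a difference of 4.28 ± 0.26 (limma adjusted p = 1.18e-18). PGK1 (ENSBTAG00000000894), the first enzyme of the pathway to make ATP, ranged from 7.06 to 158 CPM in oocyte pools (median 36.3) and from 555 to 1434 CPM in CC pools (median 1055). Its difference of 4.66 ± 0.28 (limma adjusted p = 1.22e-18) was the widest of the 10 genes. ENO1 (ENSBTAG00000013411) ranged from 9.30 to 187 CPM in oocyte pools (median 63.9) and from 542 to 1392 CPM in CC pools (median 1139), a difference of 4.16 ± 0.25 (limma adjusted p = 1.72e-18). PKM (ENSBTAG00000001601) ranged from 32.99 to 198 CPM in oocyte pools (median 84.9) and from 438 to 1047 CPM in CC pools (median 711), a difference of 3.08 ± 0.16 (limma adjusted p = 9.17e-21). In none of the 4 did the cell types overlap. The counts are per gene, so the 2 splice forms of PKM were not separated.

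Reads of cumulus markers were present in every oocyte pool, and their levels are given beside those of the enzymes. Of the 10 cumulus markers, 8 had an oocyte mean of 1.36 to 7.62% of their CC mean, and the exceptions were CYP19A1 (23.2%) and HAS2 (255%). The oocyte mean was 5.18% of the CC mean for PGK1, 6.31% for TPI1 and 6.72% for ENO1, all within that range. It was 9.41% for PFKP, 9.72% for HK2, 12.2% for ALDOA and 12.6% for PKM, above the range, and 53.1% for ALDOC, 71.9% for HK1 and 78.1% for GPI. Over the 16 oocyte pools, Pearson's r with the summed cumulus markers (log2) was 0.74 for ENO1, 0.67 for ALDOA, PGK1 and PKM, 0.61 for PFKP and 0.55 for TPI1. For HK2, ALDOC, GPI and HK1 it was 0.20, -0.00095, -0.041 and -0.23. The sum is mostly VCAN (272 to 3427 CPM in oocyte pools). With 7 other markers (without VCAN, HAS2 and CYP19A1, chosen after seeing the data) r was 0.84 for ENO1, 0.83 for PGK1, 0.69 for ALDOA, 0.62 for TPI1, 0.57 for PFKP and PKM and 0.45 for HK2. It was 0.017 for ALDOC, 0.0030 for GPI and -0.061 for HK1. Without the 2 pools farthest from the median of the summed 10 markers, r was 0.67 for ENO1, 0.59 for ALDOA, 0.69 for PKM and 0.48 for PGK1. These are descriptions over pools in which each library has 1 scaling for all its genes, and the part of attached cumulus cells in the oocyte values was not tested.

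The oocyte pools also varied more among themselves. Within a class, the coefficient of variation of the 10 genes had a median of 46.6 to 70.7% in oocytes and of 15.9 to 21.3% in CC. It was not taken over all genes, so the wider spread is not shown to be particular to the 10. GPI varied least in oocytes of small and large follicles (22.3 and 13.3%). PFKP varied most in oocytes of small follicles (136%), where its values had a median of 1.51 CPM and a highest of 13.7 CPM.

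For 3 steps the ratio between paralogues was compared in each pool, as the log2 of the ratio of CPM + 1. Transcript lengths cancel between cell types only if both make the same splice forms. They do not cancel in a sum of genes, such as PFKL plus PFKM, or where the added 1 is large beside the CPM. The log2 ratio of HK1 to HK2 ranged from -0.32 to 3.85 in oocyte pools (median 2.04) and from -1.89 to -0.58 in CC pools (median -1.26). No pool of 1 cell type entered the range of the other. The difference was -3.24 ± 0.35 (permutation test, 100000 resamples, two-sided, p = 2e-05, the smallest it can give, adjusted over 3 ratios 6e-05). Of the reads on HK1 and HK2, scaled as CPM and not per length, a median of 81.1% fell on HK1 in oocytes and 29.2% in CC. The log2 ratio of ALDOA to ALDOC was 2.37 ± 1.71 in oocytes (SD, n = 16) and 4.30 ± 0.53 in CC (SD, n = 17), higher in CC by 1.94 ± 0.45 (permutation p = 0.0002, adjusted 0.0003), with overlapping pools. Within spontaneous pools alone this difference was 1.55 (exact permutation p = 0.175). The ratio of PFKP to PFKL plus PFKM, the liver and muscle types, was -0.87 ± 1.43 in oocytes and -1.47 ± 0.49 in CC, a difference of -0.60 ± 0.38 (permutation p = 0.112). Its sign turned with a pseudocount of 0.1 (0.045, permutation p = 0.944).

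**Figure D2:**
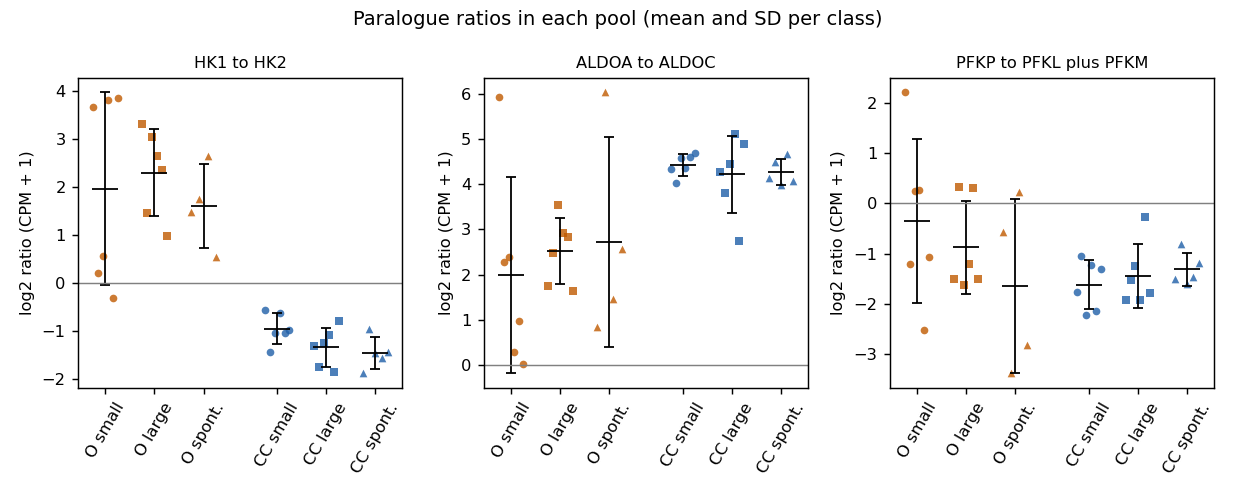
Log2 ratios of paralogue CPM + 1 in each pool by cell type (O, oocyte, orange; CC, cumulus cells, blue) and follicle class; black marks are mean and SD. The HK1 to HK2 ratio of the 16 oocyte pools (-0.32 to 3.85) lies above that of the 17 CC pools (-1.89 to -0.58), while the other ratios overlap. The position of 0 depends on transcript lengths.

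The rest of the pathway was read from lists of other glycolytic enzymes and of regulators. Among the other enzymes 4 passed the filter in both cell types, and all were called higher in CC (limma). GAPDH, the step between TPI1 and PGK1, had a mean of 410 ± 90.3 CPM in oocytes and 2630 ± 662 CPM in CC (2.67 ± 0.12, adjusted p = 2.56e-23). PGAM1, the mutase before enolase, had 67.0 ± 45.2 and 591 ± 111 CPM (3.35 ± 0.20). The gene behind this value is named PGAM1 in the oocyte table and PGAM4 in the CC table, and a second gene named PGAM1 in the CC table stayed below the filter. PFKL differed by 4.51 ± 0.29 and ENO3, the muscle enolase, by 1.58 ± 0.32. ADPGK, PFKM and ENO2 passed the filter through CC pools only, which by itself sets their direction. HK3, GAPDHS, PGAM2 and PKLR stayed below the filter. HKDC1, a hexokinase-like gene, had class means of 10.3 to 16.2 CPM in oocytes and was not analysed in CC, where the table does not list it.

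Of the regulators, PFKFB2 and PFKFB3 passed the filter in both cell types. Both make and break down the sugar bisphosphate that activates phosphofructokinase. PFKFB2 ranged from 29.9 to 123 CPM in oocyte pools (median 61.0) and from 2.08 to 17.5 CPM in CC pools (median 8.17), lower in CC (log2 difference -2.97 ± 0.24, limma adjusted p = 2.01e-14). PFKFB3 ranged from 3.13 to 38.0 CPM in oocytes (median 16.97) and from 56.8 to 167 CPM in CC (median 103), a difference of 2.88 ± 0.28 (adjusted p = 1.93e-12, limma). Neither overlapped, and their directions were opposite. BPGM, which leads the pathway around the PGK1 step, ranged from 103 to 372 CPM in oocyte pools and from 0.226 to 4.92 CPM in CC pools. TIGAR, which breaks down the same activator, ranged from 47.8 to 186 CPM in oocyte pools and from 1.04 to 8.31 CPM in CC pools. BPGM and TIGAR passed the filter through oocyte pools only, and PFKFB4 and FBP1 through CC pools only. PFKFB1 had class means of 42.8 to 71.0 CPM in oocytes and is not listed in the CC table.

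**Figure D3:**
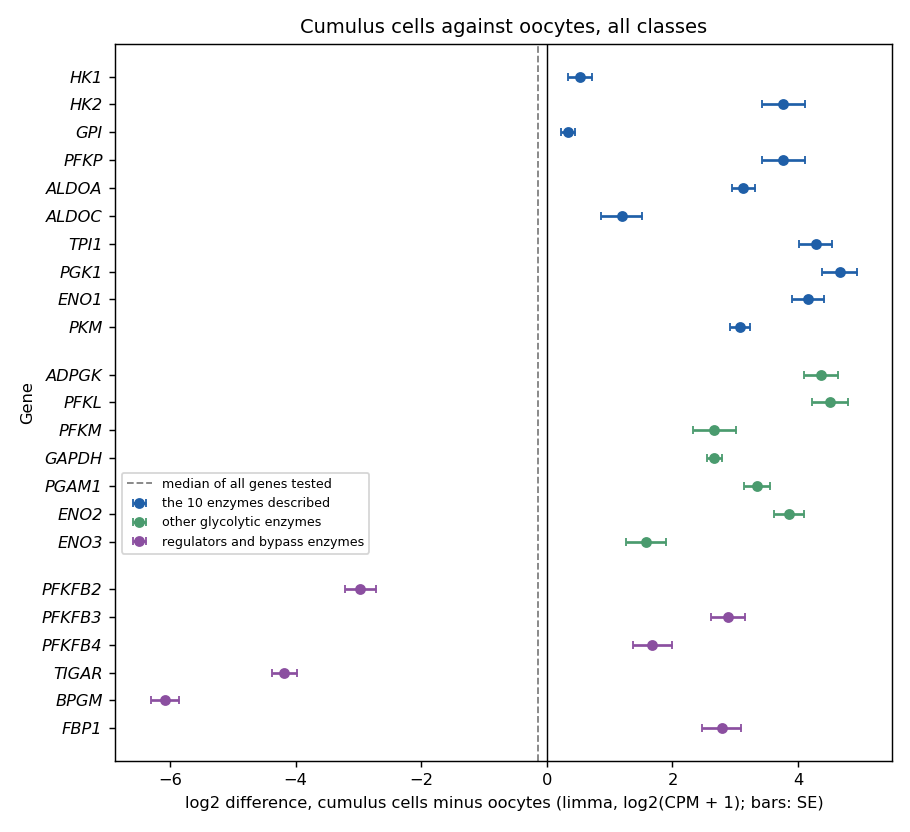
Difference between CC and oocytes of each tested gene of the pathway (x axis, log2, limma; bars are SE); positive values are higher in CC. The 10 enzymes (blue) lie right of 0, with GPI (0.34) and HK1 (0.52) nearest to it, and PFKFB2 lies left of it. The filter, passed in 1 cell type only, set the side of ADPGK, PFKM, ENO2, PFKFB4, FBP1, TIGAR and BPGM. The dashed line is the median of all genes tested (-0.15).

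Between follicle classes, calls were made at a nominal p of 0.01 or less (limma, two-sided). The study used this cut too, but required it in both edgeR and DESeq2. By limma, no member of the 10 passed an adjusted p of 0.05 in any class comparison. In oocytes 0 of the 10 were called in any of the 3 comparisons, by limma, edgeR or DESeq2. Of all 10076 genes tested in oocytes, 0.447% were called higher in large and 0.208% higher in small pools, 0.526% higher in spontaneous and 0.248% higher in small, and 0.397% higher in spontaneous and 0.546% higher in large. By direction alone, 8 of the 10 were higher in large than in small oocytes, beside 55.5% of all genes (medians 0.23 and 0.046). Spontaneous oocytes were higher than small in 9 of the 10, beside 55% (medians 0.52 and 0.048). They were higher than large in 6, beside 50.9% (medians 0.26 and 0.0078). The share of all genes at an unadjusted p under 0.05 is not given. At that cut the count was 0 for small against large, 0 for small against spontaneous and 1 for large against spontaneous. That gene was TPI1, with 40.5 ± 21.4 CPM in large (SD, n = 6) and 89.7 ± 69.9 CPM in spontaneous oocytes (n = 4), a log2 difference of 0.98 ± 0.44 (limma adjusted p = 0.968). Its spontaneous pools held 88.2, 28.9, 188 and 53.6 CPM, which overlap the range of 16.8 to 72.1 CPM of large pools. With the replicate number as a block, TPI1 (1.39) and PGK1 (1.40) were called in this comparison, although the numbers were not found to pair the pools.

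In CC the small class was the lowest in mean CPM for each of the 10 genes. Against large pools, 10 of 10 were lower in small, beside 56% of all genes. Of the 10, 4 were called, HK2, GPI, PFKP and TPI1, beside 0.69% of 9712 genes called higher in large and 0.124% higher in small. These genes are among those that the study had already named from these libraries, so their direction is not independent evidence. Of the 4, edgeR and DESeq2 called HK2 and PFKP only, and limma with the replicate number as a block called GPI and TPI1 only. The study, which used edgeR and DESeq2, reported HK2, GPI, PFKP, ALDOC and TPI1 as less abundant in small CC. Here those tools did not call GPI, ALDOC or TPI1, and the reason was not tested. The median difference of the 10 was 0.53 and that of all genes 0.045. TPI1 ranged from 421 to 863 CPM in small (median 633) and from 742 to 1172 CPM in large CC pools (median 987), a difference of 0.63 ± 0.19 (limma adjusted p = 0.999, exact permutation p = 0.00649). GPI ranged from 210 to 374 CPM in small (median 257) and from 315 to 498 CPM in large pools (median 406), a difference of 0.57 ± 0.18 (exact permutation p = 0.013). PFKP ranged from 27.7 to 49.0 CPM in small (median 36.9) and from 38.9 to 75.8 CPM in large pools (median 63.8), a difference of 0.66 ± 0.22 (exact permutation p = 0.0108). HK2 ranged from 77.9 to 100.3 CPM in small (median 87.9) and from 72.1 to 172 CPM in large pools (median 147), a difference of 0.58 ± 0.20 (exact permutation p = 0.0152). In HK2, 5 large pools lay above every small pool and large replicate 5 below them, and the other 3 genes overlapped at the edges. The 4 exact permutation p-values are not adjusted, and 0.00216 is the smallest that 6 against 6 pools allow.

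Against spontaneous pools, 10 of 10 were lower in small, beside 71.9% of all genes, and the small pools are the same as in the comparison with large. Of the 10, 3 were called, HK2, ALDOC and TPI1, beside 2.28% of all genes called higher in spontaneous and 0.103% higher in small. Only HK2 was called by edgeR, by DESeq2 and with the replicate block. The median of the 10 was 0.48 and that of all genes 0.16. HK2 had 168, 100.7, 164, 238 and 170 CPM in the spontaneous pools, all above the highest small pool (100.3 CPM), a difference of 0.85 ± 0.19 (limma adjusted p = 0.191, exact permutation p = 0.00216, the smallest the design allows). ALDOC had 36.6, 29.3, 39.2, 34.5 and 43.7 CPM in spontaneous and 19.7 to 30.1 CPM in small pools (median 22.6), a difference of 0.63 ± 0.20 (adjusted p = 0.390, limma). TPI1 had 759, 845, 915, 1187 and 1185 CPM in spontaneous pools, a difference of 0.59 ± 0.20 from small pools (adjusted p = 0.418, limma), with overlap. ALDOA, which was not called, also had no overlap, with 632 to 903 CPM in spontaneous and 413 to 628 CPM in small pools (0.47 ± 0.17, limma adjusted p = 0.438). HK2 and ALDOA were the only 2 of the 10 without overlap here, and the share of all genes without overlap is not given. Between large and spontaneous CC 0 of the 10 were called, nor did any pass an unadjusted p of 0.05 by limma, and edgeR and DESeq2 called 0. In that comparison 1.45% of all genes were called higher in spontaneous and 0.206% higher in large. By direction alone, 3 of the 10 were higher in spontaneous, beside 65.6% of all genes. Of the other enzymes (5 tested in oocytes and 7 in CC) and the regulators (5 and 4 tested), 0 were called in any of the 6 class comparisons by limma. At an unadjusted p under 0.05, for which no share of all genes is given, 4 of 7 other enzymes passed in small against large CC. These were ADPGK, PFKL, GAPDH and PGAM1, all higher in large, and GAPDH had 2117 CPM in small and 3086 CPM in large pools (limma adjusted p = 0.999). Of the 10 enzymes, 9 passed the same cut in small against large CC and 7 in small against spontaneous CC.

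**Figure D4:**
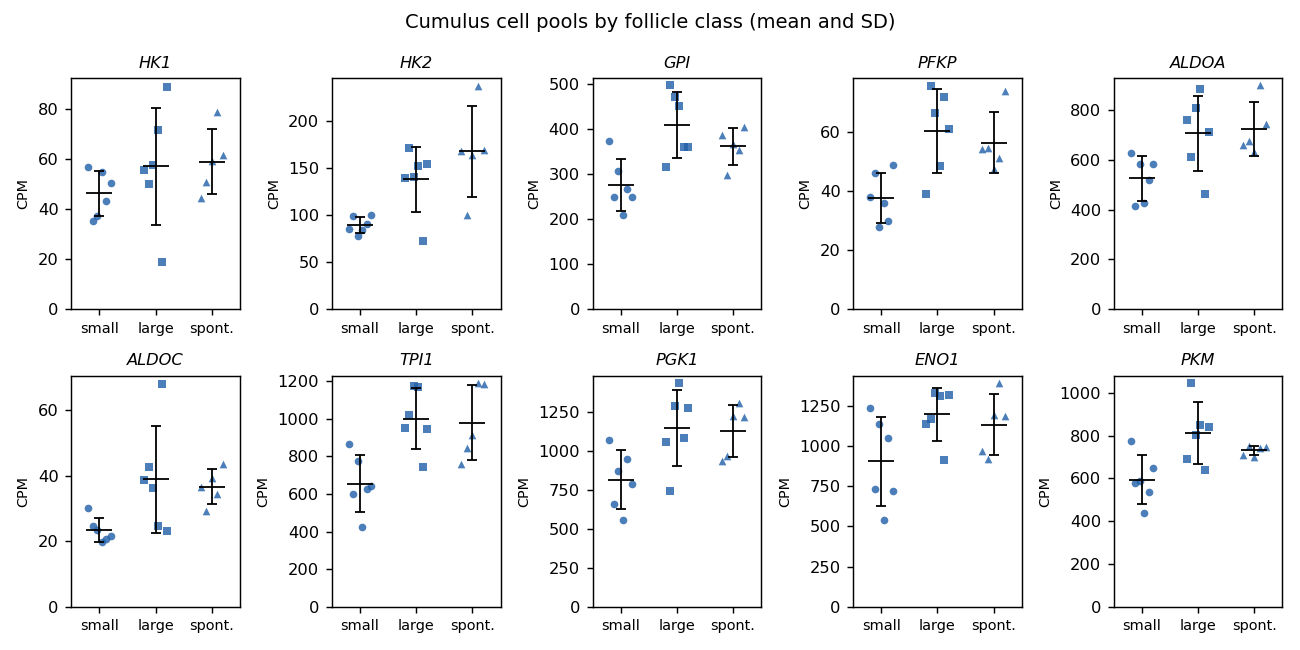
CPM of the 10 transcripts in CC pools of small, large and spontaneous follicles; each point is a pool, black marks are mean and SD, and the y axes start at 0. The small pools have the lowest mean in each panel, and for HK2 all 5 spontaneous pools lie above the 6 small pools.

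These CC calls depended on the scale of the libraries. The mitochondrially encoded share was highest in small CC pools (12.6 to 44.0%, median 23.5%), against a median of 21.4% in large and 15.6% in spontaneous pools, and its part in the class differences was tested only by rescaling. With the median of ratios, 1 of the 10 was called in small against large (PFKP) and 1 in small against spontaneous (HK2). With CPM recomputed without mitochondrially encoded genes, 0 were called in small against large and 1 in small against spontaneous (HK2). The difference of HK2 from spontaneous pools was then 0.70 and 0.68. No member turned its sign under either scaling, as the plot of the 3 scalings shows. The share of all calls that were higher in the second class fell from 84.8 to 62.9 and 40.3% in small against large, from 95.7 to 62.7 and 55.8% in small against spontaneous, and from 87.6 to 52.5 and 68.6% in large against spontaneous CC. In oocytes it moved from 68.2 to 56.3% in small against large with the median of ratios. Summed cumulus markers had medians of 17588, 25361 and 21714 CPM in CC pools of small, large and spontaneous follicles, most of it VCAN, and of 4728, 4306 and 5769 CPM without VCAN. The 4 theca markers had summed medians of 545, 730 and 623 CPM in the same order. Over all CC pools, INSL3 (mean 410 CPM) and COL1A1 (256 CPM) made most of this sum. DCN had a mean of 45.5 CPM and CYP17A1 of 0.183 CPM, so the 4 do not give 1 theca level. The part of other cells in the class differences was not tested.

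**Figure D5:**
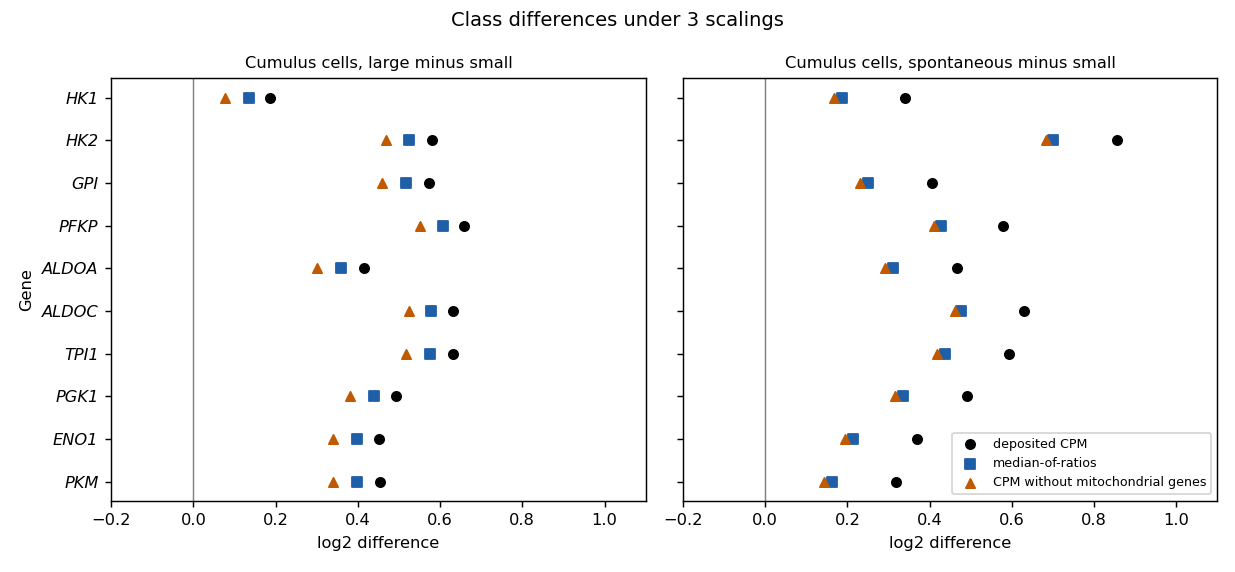
Log2 difference of the 10 transcripts between CC pools of large and small (left) and of spontaneous and small follicles (right) under the deposited CPM (circles), the median of ratios (squares) and CPM without mitochondrially encoded genes (triangles). All points lie right of 0, and those of the other scalings lie left of the deposited CPM; HK2 is farthest from 0 in the right panel.

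Single pools stood behind parts of this pattern. Small replicate 4 had the lowest CC value of its class in 6 of the 10 genes, and without it 0 genes were called against large and 1 against spontaneous pools. Without small replicate 2, 3 or 5 or large replicate 4 there were 2 calls between small and large pools, and without large replicate 3 there was 1. Small replicate 1 had the highest value of its class in 8 of the 10, and without it 6 were called against spontaneous pools, whereas 1 was called without small replicate 5 or without spontaneous replicate 3, 4 or 5. Large replicate 5 was lowest of its class in 6 genes, including HK1 (19.0 CPM) and HK2 (72.1 CPM), and highest in ALDOC (67.9 CPM). The class effect was also compared between the cell types, as the difference between CC and oocytes of each class contrast. Of the 10 genes 0 were called in any of the 3 contrasts (limma, lowest adjusted p = 0.887), beside 1.14, 1.35 and 0.936% of all genes. The count at an unadjusted p under 0.05 was also 0, the smallest difference from 0 by p being GPI in small against large (0.39 ± 0.23, limma adjusted p = 0.997).

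The 10 transcripts moved together among CC pools more than among oocyte pools. Over 17 CC pools 44 of the 45 pairs of genes had a positive Pearson's r of log2(CPM + 1), with a median of 0.59 and a highest of 0.90 for ENO1 and TPI1. Over 16 oocyte pools 38 of the 45 pairs were positive, with a median of 0.30 and a highest of 0.79 for ENO1 and ALDOA. In both cell types the lowest pair was ALDOC and HK1 (-0.35 in CC and -0.39 in oocytes). All pairs share the scaling of their library. Pairs of other genes were not compared, so the pattern is not shown to be particular to these 10. The genes outside the pathway lists whose pattern was most like the mean of the 10 (each scaled to unit variance) were PDK1 (r = 0.88), LDHA (0.87), BNIP3 (0.85), NIPSNAP3A (0.84) and KCTD9 (0.84) among 9691 genes in CC. PDK1 inhibits the entry of pyruvate into the citric acid cycle and LDHA makes lactate from it. Without the 2 pools farthest from the median these were 0.81, 0.76, 0.81, 0.73 and 0.75. In oocytes RPS27 (0.90), IL33 (0.87), MFGE8 (0.86) and RPL17 (0.85) were among the 5 most alike of 10056 genes, and RPS27 and RPL17 code for ribosomal proteins. No gene was in both lists of 5.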

How the data were processed

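The authors trimmed single-end reads of amplified cDNA with fqtrim, used Hisat2 to align them to UMD3.1 and FeatureCounts to count them on Ensembl genes (versions and the handling of reads that match several copies are not given in the sources used here, so genes with near-identical pseudogenes are uncertain to that degree). The deposited values are CPM, each library divided by its own reads on genes, for 16 oocyte and 17 CC pools. Strand was not stated. The deposited CPM were whole multiples of the worth of 1 read in 100% of values, within 0.1 read, so reads on genes could be recovered. All columns were matched to pools by name, and no 2 pools of a class agreed within sampling noise (chi-square over its degrees of freedom at least 14.4). P-values measure the spread between pools.

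Genes that reached 5 CPM in 4 or more oocyte pools or in 5 or more CC pools were tested with limma (moderated test with trend, two-sided) on log2(CPM + 1), where 1 is the pseudocount, so that changes of low genes are understated. P-values were adjusted by Benjamini-Hochberg over all genes tested. Oocytes and CC were called different at an adjusted p under 0.05, and classes at a nominal p of 0.01 or less, with all pools and, for small oocyte pools, also without small replicate 3. Paralogue ratios were tested by permutation. Genes named are the 10 enzymes, fixed lists of other enzymes and regulators, and the 5 genes in each cell type with the highest r to the mean of the 10. The enzymes and lists were chosen with earlier results of these data known.

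As alternatives, the pseudocount was set to 0.1, the filter was dropped or replaced by a mean of 1 CPM, and the main settings were exchanged for median-of-ratios scaling, CPM without mitochondrially encoded genes, edgeR and DESeq2 on the recovered reads, a replicate block, all 3 classes in 1 fit, single classes, each pool left out in turn and, added after seeing the data, TMM scaling. Same-numbered pools did not deviate together in all pairs (median correlations of their deviations from -0.064 to 0.025 over 8 sets of pairs). Tests were first tried on simulated data. The software was limma 3.58.1, edgeR 4.0.16 and DESeq2 1.42.0 in R 4.3.3, and Python 3.11.15, SciPy 1.17.1 and matplotlib 3.10.9. Gene positions and sequences were not used here, because the reference at hand is of another build. The results of 3 genes covered by these rules are not reported here.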

Additional observations from a re-analysis of the deposited data

Results flagged for a closer look

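Dixon's criterion, applied to CPM, flags about 1 in 20 groups by chance if values are normally distributed and groups independent. Neither was checked, and genes of a pool share its scaling, so the count of flags is not read as an excess. Of the 60 groups of pools (10 genes, 2 cell types and 3 classes), 7 held a pool that stood apart from the others by this criterion. In CC these were HK2 in large replicate 5 (72.1 CPM, the others 140.0 to 172) and PFKP in spontaneous replicate 5 (74.1 CPM, the others 47.6 to 54.6). In oocytes, small replicate 3 stood above the others in PFKP (13.7 CPM, the others 0 to 5.11) and PGK1 (158 CPM, the others 7.06 to 38.2), and small replicate 1 stood below them in ALDOC (1.30 CPM, the others 20.48 to 26.8). Large replicate 6 was high in PGK1 (135 CPM, the others 10.5 to 52.8) and spontaneous replicate 1 in GPI (375 CPM, the others 242 to 258). Small replicate 3 and large replicate 6 were also the oocyte pools with the highest summed cumulus markers (3896 and 3577 CPM) and mitochondrially encoded shares (5.0 and 2.68%), whose part in these values was not tested. The marker sums are mostly VCAN. Without VCAN the highest sums were 469 CPM in small, 668 CPM in large and 486 CPM in spontaneous oocyte pools. The top rank of small replicate 3 thus rests on VCAN.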

How the results depend on the processing

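The 10 calls between oocytes and CC held when any 1 pool was left out and under every change of pseudocount, filter, scaling and tool. Of 120 values of single genes under other settings, 6 lost their call, all for HK1, GPI or ALDOC, within 1 class or in the replicate block. Among CC, the 4 calls of small against large became 1 with the median of ratios, 0 without mitochondrially encoded genes, and 2 each with edgeR, DESeq2 and the replicate block, and ranged from 0 to 5 with 1 pool left out. The 3 calls of small against spontaneous became 1 under each of these 5 settings and ranged from 1 to 6 with 1 pool left out. Small against large had 3 calls with a pseudocount of 0.1 and 5 with all 3 classes in 1 fit. Small against spontaneous had 4 calls without a filter and 2 with all 3 classes in 1 fit. In oocytes, large against spontaneous went from 0 to 2 calls with the replicate block, and from 0 to 1 without spontaneous replicate 2; small against spontaneous went from 0 to 1 without small replicate 3. Besides the changes between classes named above, the replicate block left 9 of the 10 calls between oocytes and CC (HK1 was lost). It changed no further count of calls. The ALDOA to ALDOC ratio within spontaneous pools alone differed by 1.55 (exact permutation p = 0.175). The PFKP ratio reversed with a pseudocount of 0.1 (0.045) and within spontaneous pools (0.33, exact permutation p = 0.698), and passed p = 0.05 with the replicate block (-0.92, exact permutation p = 0.0186); with 1 pool left out it ranged from -0.77 to -0.40. The cause of these changes was not tested. Depth limits PFKP in oocytes, where 3 pools had no read and 3 reads are worth up to 0.391 CPM, and 4 to 6 pools per class limit the class comparisons.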
